A study of Mus musculus with 20 samples.

Results

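The genes described here are 8 genes of cholesterol synthesis and its control: Hmgcs1, Sqle, Idi1, Fdft1, Cyp51, Lss, Insig1 and Srebf2. They were found by symbol among the 25869 genes of a mouse RNA-seq table, all 8 were present, and all 8 passed the filter on low counts in every comparison. Hmgcs1, Idi1, Fdft1, Sqle, Lss and Cyp51 encode enzymes of the pathway, Insig1 encodes a membrane protein that holds the pathway's regulators back, and Srebf2 encodes the main transcription factor of the pathway. None of the 8 is itself a cholesterol uptake receptor, and uptake genes are given below from a separate list.

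Animal cells make cholesterol from acetyl-CoA through mevalonate, isoprenoids, squalene and lanosterol, or take it up in lipoprotein particles through receptors at the cell surface. When sterols are scarce, SCAP carries the SREBP proteins from the endoplasmic reticulum to the Golgi, where they are cut and released to enter the nucleus and raise transcription of genes of synthesis and uptake. When sterols are plentiful, INSIG proteins retain SCAP and SREBP, while the oxysterol-activated LXR receptors raise the genes of cholesterol export, so that synthesis genes and export genes often move in opposite directions.

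The study built a mouse that carries a CRISPR activation (CRISPRa) cassette, dCas9a-SAM, at the ubiquitously expressed Rosa26 locus, and used it to raise Bcl-2, a pro-survival gene, in fibroblasts and in Myc-driven B cells. RNA was sequenced from 20 libraries. Of these, 10 came from mouse embryonic fibroblasts (MEFs): 2 from WT embryos, 2 from dCas9a-SAM KI/+ embryos without an sgRNA, 2 of that genotype with a non-targeting guide (sgNT) and 4 with guides for the Bcl-2 promoter (sgBcl-2). Another 6 came from cell lines of Eµ-Myc lymphomas that carry dCas9a-SAM KI/+ and sgBcl-2. Of these, 4 were IgM-positive (lines 1 to 4, labelled 14_179_IgMp, 15_180_IgMp, 16_202_IgMp and 17_213_IgMp) and 2 IgM-negative (lines 1 and 2, labelled 18_214_IgMn and 19_216_IgMn). In these the Myc transgene is driven by the immunoglobulin heavy chain enhancer, and the tumours grew in irradiated recipients of transduced foetal liver progenitors. The remaining libraries were 2 primary IgM-positive tumours of the same genotype, as bulk tissue, and 2 preB-ALL libraries of BCR-ABL1 (p190T/+) cells. The names of both preB-ALL libraries also carry Erg, and they differ in the part with Cre, with CreERLSLErg in preB-ALL 1 and RagCreErg in preB-ALL 2. The sample names give no drug treatment. The Bcl-2 and non-targeting guide vectors that the paper describes carried puromycin resistance, and its RNA-seq methods do not say whether the MEFs were selected. The 4 sgBcl-2 libraries are 2 from each of 2 MEF lines, and no source used here says whether the 2 of a line are 2 guides or 2 cultures. P-values from the MEF groups thus measure the spread between these libraries, part of which may be technical.

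Values are CPM, reads for every 1000000 reads counted on genes, as the authors deposited them, and depth was between 12474885 and 26678417 reads per library. Bcl2, the targeted gene, had 46.8 to 71.8 CPM in the 4 sgBcl-2 MEF libraries against 11.2 to 17.9 CPM in the other 6 MEF libraries. WT MEF library 2 stood apart: 4021 of 13392 genes were at least 2-fold from WT MEF library 1, its summed level of 5 myeloid markers was 168.7 CPM against at most 7.11 CPM in the other MEF libraries, with all 5 detected, its summed level of 3 endothelial markers was 48.5 CPM against 2.99 to 12.8 CPM, and its summed level of 10 fibroblast markers was 7360 CPM against 15249 to 22092 CPM. The preB-ALL libraries were the shallowest (12474885 and 14970269 reads), listed all 15 mitochondrial genes at 0, came from another RNA kit, culture medium and sequencing run, and held 2314 to 5461 CPM of fibroblast markers against 5.16 to 59.3 CPM in the lymphoma lines. B cell markers summed to at least 953 CPM in every line, tumour and preB-ALL library and to at most 24.4 CPM in MEFs. In bulk samples such as these, fewer cells of a type and less RNA per cell cannot be told apart.

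The promoters of the 8 genes were examined for the motifs through which SREBP is known to act, since the levels of most of the 8 genes followed each other across libraries. RefSeq promoter windows of GRCm38.p6, from 250 bases before to 50 bases after the transcription start, were at hand for 6 of the 8 genes. Sqle and Fdft1 had no entry. The motifs searched on both strands were TCACNCCA (the core of the sterol regulatory element, SRE), CCAAT (the site of NF-Y) and GGGCGG (the GC box of Sp1), and no matches overlapped in these 6 windows. All 6 windows held a CCAAT box and a GC box, against 37.4% and 35.7% of all 32851 promoter windows. The SRE core was found in 2 of 6, Hmgcs1 and Srebf2, against 4.36% of all windows. All 3 motifs were present in these 2 windows and in 0.502% of all windows. Among 14 other synthesis enzymes, 11 had a window, of which 9 held a CCAAT box, 10 a GC box and 1 the SRE core. A match is a description of letters and not a measured binding site. The bases directly before the start are shown for 5 of these genes, 5′ to 3′ on the gene's own strand, with the 3 motifs in capitals on either strand (ATTGG and CCGCCC are the CCAAT and GC boxes read on the opposite strand). The first 3 are shown over 250 bases because their motifs spread that far, and the last 2 over 100 bases that hold the CCAAT box near the start.
Hmgcs1, chr13:119690101-119690350, plus strand: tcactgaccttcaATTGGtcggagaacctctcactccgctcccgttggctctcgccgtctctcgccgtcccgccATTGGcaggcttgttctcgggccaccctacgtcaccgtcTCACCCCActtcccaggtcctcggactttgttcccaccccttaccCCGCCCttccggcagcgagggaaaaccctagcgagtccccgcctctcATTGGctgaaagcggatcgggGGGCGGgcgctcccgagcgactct
Srebf2, chr15:82147019-82147268, plus strand: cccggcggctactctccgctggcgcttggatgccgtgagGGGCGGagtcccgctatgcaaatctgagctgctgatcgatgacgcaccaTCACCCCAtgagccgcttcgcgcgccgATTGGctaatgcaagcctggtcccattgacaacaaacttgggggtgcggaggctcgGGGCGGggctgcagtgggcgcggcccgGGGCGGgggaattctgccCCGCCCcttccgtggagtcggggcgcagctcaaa
Insig1, chr5:28071162-28071411, plus strand: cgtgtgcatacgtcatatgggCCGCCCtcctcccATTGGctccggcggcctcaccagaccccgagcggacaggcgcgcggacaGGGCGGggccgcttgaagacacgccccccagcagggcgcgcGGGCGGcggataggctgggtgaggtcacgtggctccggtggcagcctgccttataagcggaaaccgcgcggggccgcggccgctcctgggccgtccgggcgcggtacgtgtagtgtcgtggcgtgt
Idi1, chr13:8885506-8885605, plus strand: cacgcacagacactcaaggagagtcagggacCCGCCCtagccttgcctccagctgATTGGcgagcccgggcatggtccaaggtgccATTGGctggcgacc
Cyp51, chr5:4104698-4104797, minus strand: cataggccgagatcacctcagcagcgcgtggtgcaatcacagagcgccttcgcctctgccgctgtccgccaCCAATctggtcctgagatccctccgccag
The SRE core began at base -137 in Hmgcs1 and at base -162 in Srebf2, where -1 is the base before the start. A CCAAT box began within 62 bases of the start in Hmgcs1 (-45), Idi1 (-45 and -14), Cyp51 (-29) and Lss (-62), whereas it began at -135 in Srebf2 and at -216 in Insig1. The GC box of Cyp51 (-135) lies beyond the bases shown. The start used for Lss lies inside the listed bounds of the gene, so its window, with GC boxes at -166 and -127, is given by positions only.

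**Figure D1:**
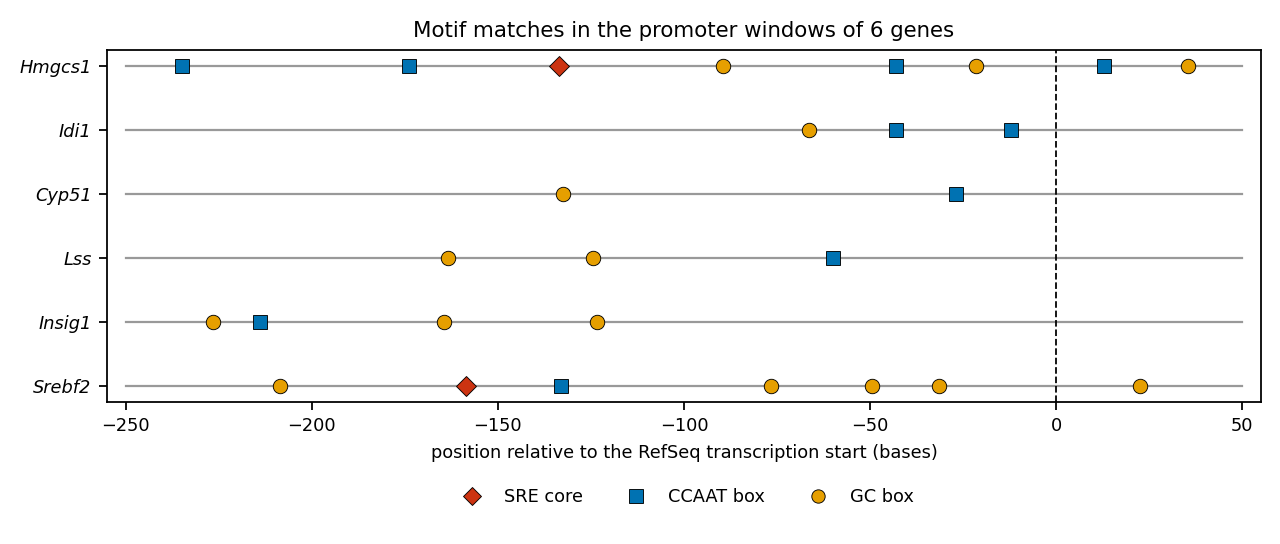
Map of motif matches in 6 promoter windows, with the position in bases from the RefSeq transcription start on the horizontal axis and 1 line per gene. Diamonds are SRE cores, squares CCAAT boxes and circles GC boxes on either strand. The 2 SRE cores lie in Hmgcs1 and Srebf2, and each gene has at least 1 CCAAT box and 1 GC box.

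Hmgcs1 (Entrez gene 208715, chr13:119690351-119708260 of GRCm38) encodes cytosolic HMG-CoA synthase, an early enzyme of the mevalonate pathway. The 2 values of each MEF group below are MEF lines 1 and 2 in that order. Hmgcs1 had 332 and 66.9 CPM in WT cells, 333 and 297 CPM without an sgRNA and 235 and 206 CPM with sgNT. The 4 sgBcl-2 libraries had 333 and 329 CPM in line 1 and 300.2 and 164 CPM in line 2. The IgM-positive lines had 84.3, 147, 131 and 122 CPM (lines 1 to 4 in that order, here and below). WT library 2 was the lowest of the MEF libraries, and IgM-positive line 1 was the lowest of the lymphoma lines. The IgM-negative lines had 209.6 and 150.0 CPM, the tumours 37.8 and 29.2 CPM and preB-ALL 229 and 159 CPM. Both tumours were below every other library of the series.

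Idi1 (Entrez gene 319554, chr13:8885606-8892396) encodes isopentenyl-diphosphate isomerase, which interconverts the 5-carbon building blocks of isoprenoids. It had 242 and 16.3 CPM in WT MEFs, 198 and 175 CPM without an sgRNA, 167 and 140.1 CPM with sgNT, and 254, 265, 211 and 149 CPM with sgBcl-2 (libraries 1.1, 1.2, 2.1 and 2.2). The IgM-positive lines had 64.7, 167, 168 and 158 CPM and the IgM-negative lines 259.7 and 255 CPM. Both IgM-negative lines were above all 4 IgM-positive lines. The tumours had 35.8 and 15.2 CPM and preB-ALL 19.0 and 10.3 CPM. Idi1 was the only one of the 8 genes whose lowest mean was in preB-ALL and not in the tumours.

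Fdft1 (Entrez gene 14137, chr14:63145150-63181687) encodes squalene synthase, the first enzyme committed to sterols. It had 181 and 80.0 CPM in WT MEFs, 140.2 and 135 CPM without an sgRNA, 157 and 139.9 CPM with sgNT, and 184, 196, 169.6 and 144 CPM with sgBcl-2. The IgM-positive lines had 21.3, 37.1, 34.6 and 31.2 CPM, the IgM-negative lines 43.0 and 35.9 CPM, the tumours 17.3 and 16.1 CPM and preB-ALL 101 and 103 CPM. No library of the lymphoma lines or tumours reached any MEF or preB-ALL library.

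Sqle (Entrez gene 20775, chr15:59315092-59331193) encodes squalene epoxidase, an oxygen-dependent and rate-limiting step after squalene. It had 248 and 56.1 CPM in WT MEFs, 207 and 195 CPM without an sgRNA, 199 and 190.1 CPM with sgNT, and 272, 285, 271 and 225 CPM with sgBcl-2. All 4 sgBcl-2 libraries were above both sgNT libraries and above both libraries without an sgRNA. The IgM-positive lines had 86.2, 111, 209.7 and 173 CPM, the IgM-negative lines 177 and 145 CPM, the tumours 29.1 and 22.3 CPM and preB-ALL 215.8 and 156 CPM.

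Lss (Entrez gene 16987, chr10:76531565-76557139) encodes lanosterol synthase, which closes the sterol rings. It had 126 and 29.7 CPM in WT MEFs, 102 and 88.4 CPM without an sgRNA, 97.6 and 91.3 CPM with sgNT, and 144, 149, 123 and 97.3 CPM with sgBcl-2. The lines had 29.4, 50.6, 43.6 and 38.7 CPM (IgM-positive) and 48.9 and 53.6 CPM (IgM-negative), the tumours 17.8 and 13.1 CPM and preB-ALL 47.2 and 40.2 CPM. The lymphoma lines and preB-ALL overlapped, and both groups were below the MEF libraries other than WT library 2.

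Cyp51 (Entrez gene 13121, chr5:4080674-4104697) encodes lanosterol 14-alpha-demethylase, the first step after lanosterol. It had 316 and 64.1 CPM in WT MEFs, 263 and 245 CPM without an sgRNA, 203 and 175 CPM with sgNT, and 316, 321, 280.1 and 230.5 CPM with sgBcl-2. The lines had 76.5, 147, 141 and 115 CPM (IgM-positive) and 156 and 132 CPM (IgM-negative), the tumours 40.9 and 27.0 CPM and preB-ALL 212 and 195 CPM. Both sgNT libraries were below all libraries with sgBcl-2 and below both without an sgRNA.

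Insig1 (Entrez gene 231070, chr5:28071412-28078662) is itself raised by SREBP and encodes the protein that retains SCAP. It had 231 and 55.1 CPM in WT MEFs, 203 and 196 CPM without an sgRNA, 174 and 154 CPM with sgNT, and 255, 279.7, 236 and 162 CPM with sgBcl-2. The lines had 102, 180.3, 161 and 93.7 CPM (IgM-positive) and 135 and 157 CPM (IgM-negative), the tumours 39.0 and 25.8 CPM and preB-ALL 156 and 206 CPM. The tumours were again below every other library of the series.

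Srebf2 (Entrez gene 20788, chr15:82147269-82205379) encodes SREBP-2, which is regulated mainly by cleavage of the protein and also raises its own gene. It had 230.1 and 137.7 CPM in WT MEFs, 232 and 195 CPM without an sgRNA, 201.8 and 208 CPM with sgNT, and 263, 270.0, 259 and 253 CPM with sgBcl-2. The lines had 255, 346, 473 and 429.8 CPM (IgM-positive) and 302 and 329 CPM (IgM-negative), the tumours 164 and 165 CPM and preB-ALL 405 and 339 CPM. Its order of groups differed from that of the enzymes, with the highest means in the IgM-positive lines and preB-ALL. Per kilobase of exon, Srebf2 had the highest mean level of the 8 genes over the 6 lymphoma lines together (70.0 CPM per kb), in tumours (32.4) and in preB-ALL (73.3). In the IgM-negative lines alone Idi1 was first (85.0 against 62.1 CPM per kb for Srebf2), whereas in MEFs the highest was Hmgcs1 without an sgRNA (90.5) and Sqle with sgBcl-2 (95.4). Over these groups the lowest mean per kilobase was that of Lss in MEFs and tumours, of Fdft1 in the lines and of Idi1 in preB-ALL.

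The order of the 8 groups by mean CPM placed a dCas9a-SAM KI/+ MEF group first for 6 of the 8 genes. It was the group without an sgRNA for Hmgcs1 and the sgBcl-2 group for Sqle, Fdft1, Cyp51, Lss and Insig1. For Idi1 the first group was the IgM-negative lines and for Srebf2 the IgM-positive lines. The tumours came last for 7 genes. For Hmgcs1, Sqle, Fdft1, Cyp51, Lss and Insig1 both tumours were below every library of the next group in that order, whereas for Srebf2 they lay between the 2 libraries of the WT MEFs, the next group. Among MEF groups that were neighbours in these orders, the sgBcl-2 libraries lay above those without an sgRNA with no overlap for Sqle and Srebf2, and the libraries without an sgRNA lay above sgNT for Idi1. The other neighbours without overlap were the IgM-negative above the IgM-positive lines for Hmgcs1, preB-ALL above the IgM-negative lines for Fdft1 and Srebf2, the IgM-negative lines above preB-ALL for Lss and above the sgBcl-2 MEFs for Srebf2, and for Cyp51 the MEFs without an sgRNA above preB-ALL and sgNT above the IgM-negative lines. All remaining neighbours overlapped.

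**Figure D2:**
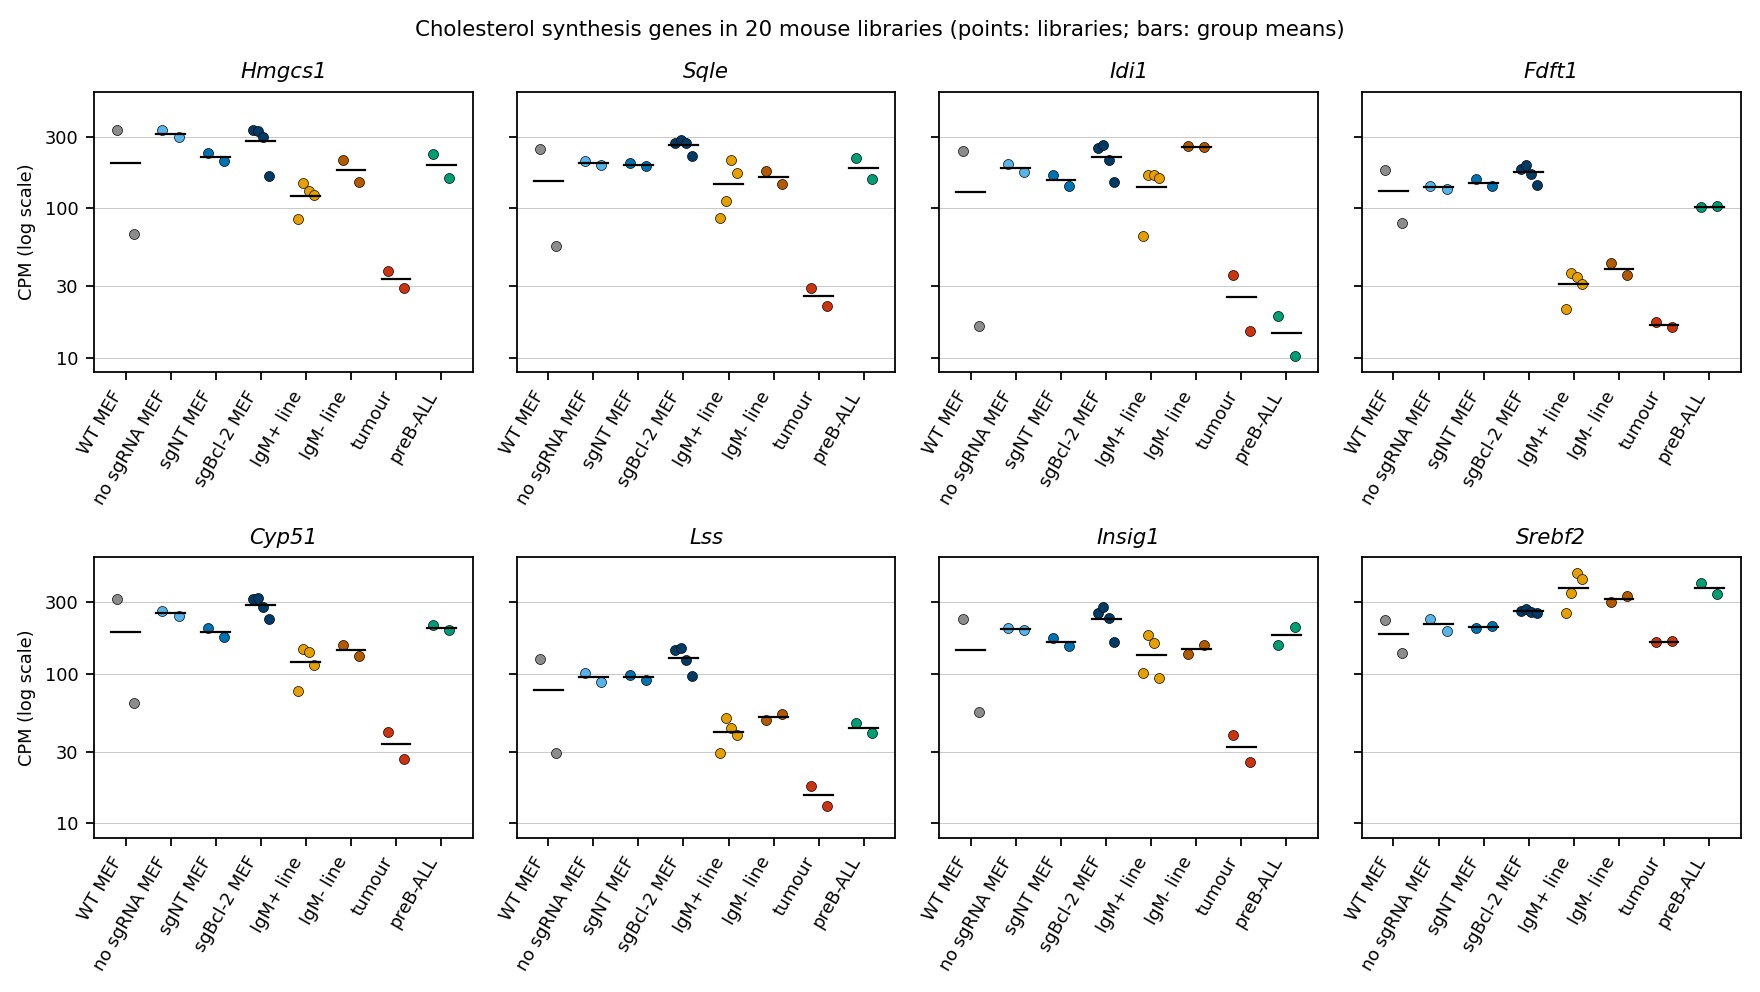
CPM on a log axis for each of the 8 genes, with 1 point per library, a bar at each group's mean and 8 groups on the horizontal axis. The 2 tumours are the lowest group for 7 genes, preB-ALL is the lowest for Idi1 (19.0 and 10.3 CPM), and WT MEF library 2 lies below WT MEF library 1 for all 8 genes.

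The first comparison set growth in the animal against growth in culture, with the 2 primary IgM-positive tumours against IgM-positive lines 1 and 2, which come from the same mice. The level of each of the 8 genes was lower in both tumours than in both lines. Mean Idi1 was 25.5 ± 14.6 CPM (SD, n = 2) in the tumours and 116 ± 72.4 CPM (SD, n = 2) in the lines, a 4.55-fold lower level. Mean Insig1 was 4.36-fold lower (32.4 ± 9.34 against 141 ± 55.4 CPM), Sqle 3.83-fold lower (25.7 ± 4.81 against 98.5 ± 17.4 CPM) and Hmgcs1 3.46-fold lower (33.5 ± 6.07 against 116 ± 44.7 CPM). The differences of Srebf2, which encodes the regulator, and of Fdft1 were smaller, at 1.83-fold (164 ± 0.422 against 300.3 ± 64.3 CPM) and 1.75-fold (16.7 ± 0.815 against 29.2 ± 11.2 CPM). Cyp51 was 3.30-fold and Lss 2.58-fold lower. These sizes rest on few libraries. With IgM-positive line 1 left out, the log2 fold change of Idi1 was -2.85, and with line 2 left out it was -1.57, and that of Fdft1 was -1.16 and -0.45 in the same order. The same 2 fits gave -2.16 and -1.31 for Cyp51, -1.73 and -1.04 for Lss, -2.16 and -1.44 for Hmgcs1 and -2.52 and -1.79 for Insig1, so that line 2 carried the larger differences.

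Of the 12719 genes tested, 26.0% were lower in both tumours than in both lines. In limma's test on log2(CPM + 0.1), with p-values adjusted by Benjamini and Hochberg over all genes tested, 0 of the 8 genes passed the threshold of 0.05, while 0.330% of all genes were called. At an unadjusted p under 0.05 in limma there were 7 of the 8 genes, all except Fdft1, and 3295 of the 12719 genes tested. The log2 fold change was -1.98 ± 0.22 (SE) for Sqle (limma adjusted p = 0.0572), -2.14 ± 0.34 for Insig1 (0.0724), -1.79 ± 0.31 for Hmgcs1 (0.0758), -0.90 ± 0.18 for Srebf2 (0.0833) and -1.72 ± 0.38 for Cyp51 (0.0924). It was -1.38 ± 0.34 for Lss (limma adjusted p = 0.105), -2.20 ± 0.61 for Idi1 (0.122) and -0.80 ± 0.32 for Fdft1 (0.214). The median over the 8 genes was -1.76 against 0.01 over all genes tested.

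This call depended on the test. Against all 4 IgM-positive lines, limma called 7 of the 8 genes lower, with adjusted p between 0.0132 for Hmgcs1 and 0.0422 for Srebf2, when 4.91% of all genes were called lower. DESeq2 on the recovered reads also called 7 lower, against 8.34% of all genes, whereas limma-voom and edgeR's quasi-likelihood test called 0. Fdft1 was the exception in both of the former. The labels give the 2 tumours opposite mouse numbers in title and description. Blocking on the mouse from the titles gave 7 calls, all lower, when 15.0% of all genes were called lower, and blocking on that from the descriptions gave 0 calls among the 8 and 0% among all genes. Beside these values, the 5 myeloid markers summed to 24.6 to 31.3 CPM in the tumours against 0.586 to 10.0 CPM in the lymphoma lines, T cell markers reached 1.66 CPM, and erythroid markers 1.36 to 2.69 CPM. The fibroblast sum of 16.3 to 172 CPM was mostly Thy1 (12.8 to 169 CPM), a gene that mouse T cells also express, while the mean of Col1a1 was 0.612 CPM against 1.29 CPM in the 6 lines and that of Fn1 1.35 against 2.17 CPM. Mitochondrial genes took 7.80% and 9.04% of the reads in the tumours against 5.30% to 7.18% in the lines. The part of these values in the result was not tested, and B cell markers were also higher in the tumours (3649 to 3888 CPM) than in the lines (953 to 1721 CPM).

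The second comparison set the 6 lymphoma lines against preB-ALL, a leukaemia of B cell precursors. Of the 8 genes, 1 was higher in the lines (Idi1), 1 was lower (Fdft1) and 6 did not pass the test. Idi1 had between 64.7 and 259.7 CPM in the 6 lines, with a median of 167 CPM, against 19.0 and 10.3 CPM in preB-ALL, and the mean was 12.2-fold higher (178.6 ± 72.1 against 14.7 ± 6.10 CPM, SD, n = 6 and 2). Its log2 fold change was 3.89 ± 0.52 (SE, limma adjusted p = 5.35e-04). Fdft1, which acts later in the pathway, had 21.3 to 43.0 CPM with a median of 35.3 CPM in the lines against 101 and 103 CPM, a 3.02-fold lower mean and a log2 fold change of -1.26 ± 0.25 (limma adjusted p = 0.00444). These 2 enzymes thus differed in opposite directions between the same libraries. The summed fibroblast markers given above were at 2314 to 5461 CPM in preB-ALL against 5.16 to 59.3 CPM in the lines. This sum moves with the difference of Fdft1, a gene with 80.0 to 196 CPM in the MEF libraries. Of the 10 markers, 1 had 0 reads in preB-ALL 1 and 2 had 0 reads in preB-ALL 2, so the sum does not reflect the whole list. The part of the sum in the result was not tested.

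The background is large here, as 43.4% of all 13961 genes tested were called in either direction, and 2 of 8 is below that share. Hmgcs1 (lowest, median and highest line 84.3, 139 and 209.6 CPM), Sqle (86.2, 159 and 209.7 CPM), Insig1 (93.7, 146 and 180.3 CPM), Lss (29.4, 46.3 and 53.6 CPM) and Srebf2 (255, 337 and 473 CPM) overlapped preB-ALL. Cyp51 (76.5, 137 and 156 CPM) was below preB-ALL in all 6 lines, with a log2 fold change of -0.34 ± 0.26 (limma adjusted p = 0.319). The other 5 had log2 fold changes between -0.13 ± 0.32 (SE) for Hmgcs1 and 0.35 ± 0.24 for Lss. Scaling matters for small values here, since without TMM factors the median of all genes moved by -0.35, and Sqle (0.01 with, -0.35 without), Lss (0.35 and -0.0092) and Srebf2 (0.27 and -0.092) changed sign while the calls of Idi1 and Fdft1 did not change. Idi1 was no longer called when the tumours replaced the lines of their mice (limma adjusted p = 0.0730, log2 fold change 3.13). The kit, medium and sequencing run differ between these groups and cannot be told apart from the cell type.

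In the third comparison, the 2 IgM-negative lines were set against the 4 IgM-positive lines, that is, lymphomas without and with surface IgM. For 7 of the 8 genes the mean was higher in IgM-negative lines. For Hmgcs1 and Idi1 the groups did not overlap, but the share of all genes without overlap was not counted here. Idi1 had a mean of 257 ± 3.55 CPM (SD, n = 2) against 139 ± 49.96 CPM (n = 4), with a log2 fold change of 1.04 ± 0.40 (SE, limma adjusted p = 0.416). Hmgcs1 had 179.8 ± 42.1 against 121 ± 26.7 CPM, with 0.64 ± 0.25 (limma adjusted p = 0.422). With 1 line left out in turn, the log2 fold change of Hmgcs1 ran from 0.38 (without IgM-negative line 1) to 0.92 (without IgM-negative line 2), and that of Idi1 from 0.71 (without IgM-positive line 1) to 1.17 (without IgM-positive line 3). Srebf2 was the exception, at -0.16 ± 0.26 (limma adjusted p = 0.854). Limma called 0 of the 8 genes against 0.597% of all 12386 genes, with 2 of the 8 and 1397 of all genes at an unadjusted p under 0.05, and limma-voom, edgeR and DESeq2 also called 0. The median over the 8 genes was 0.39 against -0.02 over all genes. Beside these values, B cell markers summed to 1045 and 953 CPM in the IgM-negative lines against 1335 to 1721 CPM in the IgM-positive lines. In the same order, endothelial sums were 15.5 and 2.85 against 22.7 to 43.0 CPM and myeloid sums 0.586 and 0.776 against 1.33 to 10.0 CPM. Mitochondrial genes took 7.18% and 7.16% against 5.30% to 6.73% of the reads, while fibroblast, T cell and erythroid sums overlapped. The part of these values in the result was not tested.

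The fourth comparison set the lymphoma lines against sgBcl-2 MEFs, since both carry dCas9a-SAM and guides for Bcl-2 but differ in cell type. Of the 8 genes, 6 fell in the lines, 2 (Idi1 and Srebf2) did not pass the test and 0 rose. The largest difference was that of Fdft1, with a 5.12-fold lower mean (33.9 ± 7.27 against 173 ± 22.4 CPM, SD, n = 6 and 4) and a log2 fold change of -2.55 ± 0.18 (SE, limma adjusted p = 2.36e-07). Lss was 2.91-fold lower (44.1 ± 8.96 against 128 ± 23.4 CPM, limma adjusted p = 6.26e-06) and Cyp51 2.24-fold lower (128 ± 29.0 against 287 ± 41.9 CPM, limma adjusted p = 6.97e-05), and neither overlapped. Hmgcs1 (log2 fold change -1.18 ± 0.27, limma adjusted p = 0.00195) and Insig1 (-0.94 ± 0.21, 0.00173) were called although their groups overlapped through the sgBcl-2 library 2.2, and Sqle (-1.04 ± 0.24, 0.00220) had no overlap. Idi1 had -0.57 ± 0.36 (limma adjusted p = 0.169).

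Srebf2 went the other way, with 0.24 ± 0.16 (limma adjusted p = 0.187), and was called higher without IgM-positive line 1 (0.33, adjusted p = 0.0394) and without TMM factors (0.41, adjusted p = 0.0304). Of all 14620 genes, 45.0% were called lower, and the median was -1.11 over the 8 genes against -0.27 over all genes. The lines and the sgBcl-2 MEFs also enter the comparisons with preB-ALL and with sgNT, so those values share libraries with these.

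**Figure D3:**
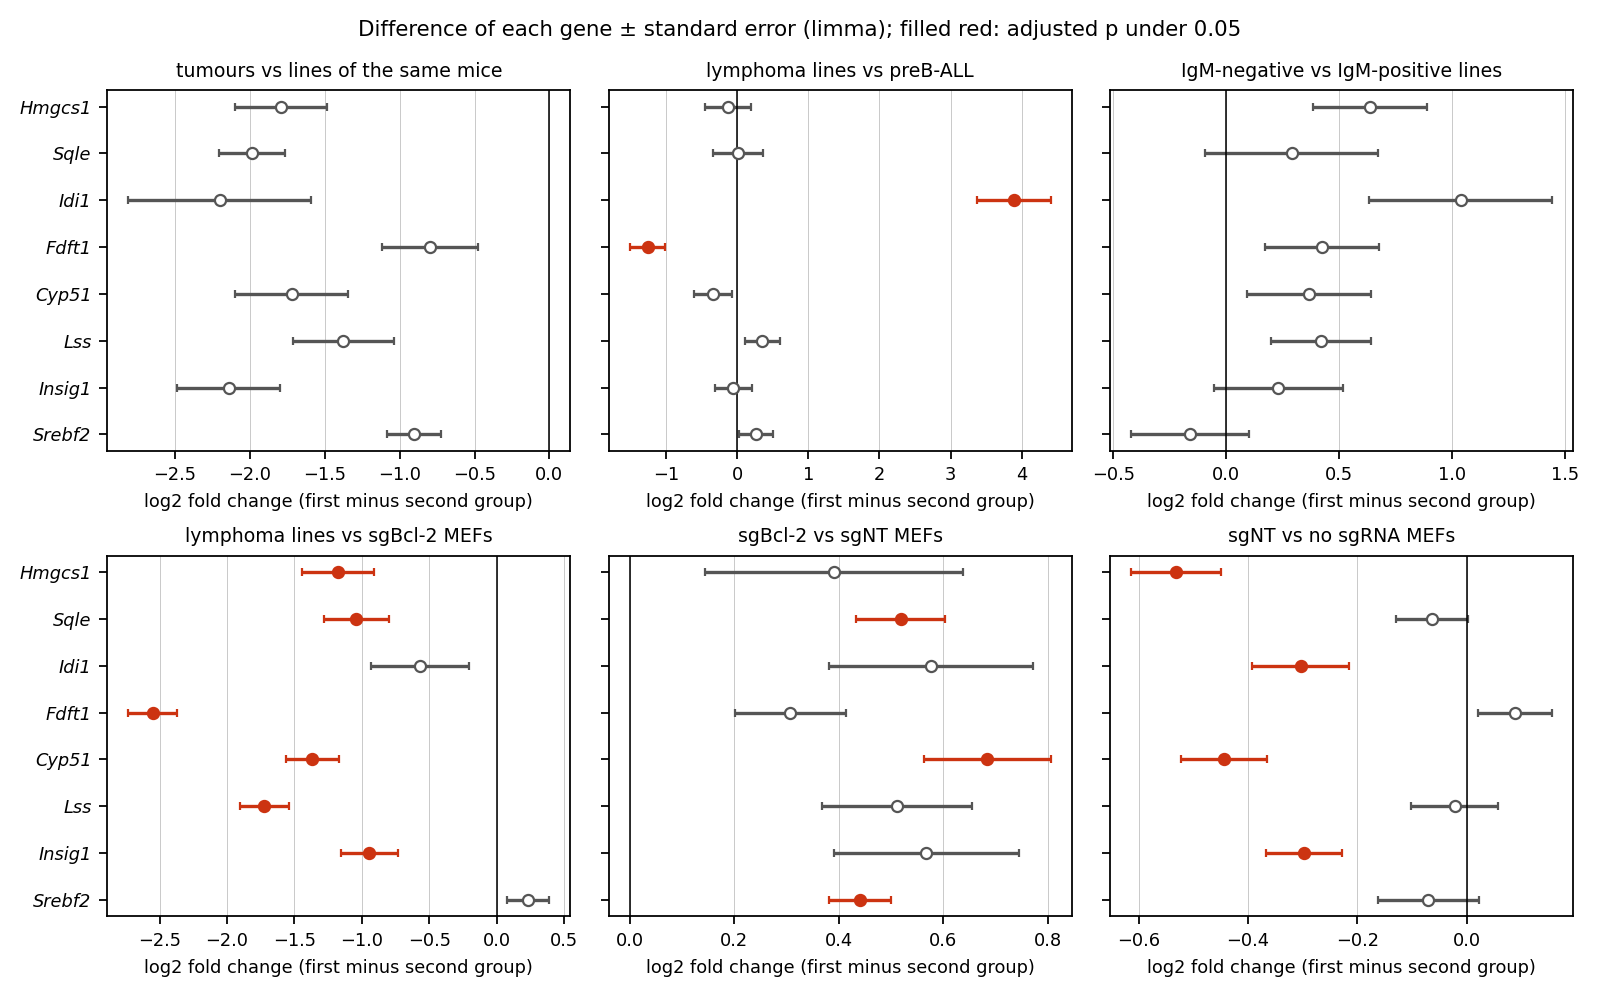
Log2 fold change of each of the 8 genes in 6 comparisons, first minus second group, with bars for the standard error of limma. Filled red points have an adjusted p under 0.05. All 8 points lie below 0 for tumours against lines with 0 called, 6 are called lower in lines against sgBcl-2 MEFs, and all 8 lie above 0 for sgBcl-2 against sgNT with 3 called.

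The fifth comparison, sgBcl-2 against sgNT MEFs, addresses what else changes when the guide targets Bcl-2. All 8 genes had a higher mean with sgBcl-2, and 3 of them rose by the test. Cyp51 rose 1.52-fold (287 ± 41.9 against 189 ± 20.1 CPM, SD, n = 4 and 2), with a log2 fold change of 0.68 ± 0.12 (SE, limma adjusted p = 0.0130). Sqle rose 1.35-fold (263 ± 26.5 against 195 ± 6.30 CPM), with 0.52 ± 0.09 (limma adjusted p = 0.0104). Srebf2 rose 1.28-fold (261 ± 7.12 against 205 ± 4.20 CPM), with 0.44 ± 0.06 (limma adjusted p = 0.00531). For these 3 genes all 4 sgBcl-2 libraries were above both sgNT libraries.

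The other 5 genes overlapped, in each case through the sgBcl-2 library 2.2, which was the lowest of the 4 for all 8 genes. Their log2 fold changes were 0.51 ± 0.14 for Lss (limma adjusted p = 0.0563), 0.57 ± 0.18 for Insig1 (0.0752), 0.58 ± 0.20 for Idi1 (0.0928), 0.31 ± 0.11 for Fdft1 (0.0982) and 0.39 ± 0.25 for Hmgcs1 (0.328). The 3 of 8 stand against 6.61% of all 14676 genes called higher, and the median of 0.52 over the 8 genes stands against -0.01 over all genes. With the MEF line number as a replicate block, 7 of the 8 were called, with Hmgcs1 (limma adjusted p = 0.225) the exception, when 9.18% of all genes were called higher.

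The number of calls depended on single libraries. Without the sgBcl-2 library 2.2 limma called all 8 genes, when 7.01% of all genes were called higher. Without sgNT library 1 it called 0 of the 8, with 0.732% of all genes called higher, and without sgNT library 2 it called Srebf2 alone, with 1.11% of all genes. The last 2 fits rest on 1 sgNT library, which was assumed to vary like the sgBcl-2 group. With all 10 MEF libraries in the fit, WT library 2 included, limma called 0 of the 8 (adjusted p between 0.483 and 0.788 for the 3 genes) and 0.297% of all genes higher, although the log2 fold changes of Cyp51, Sqle and Srebf2 were still 0.69, 0.52 and 0.44. The sign was positive for all 8 genes in every alternative run. No myeloid or endothelial marker list differed as in WT library 2. The low myeloid sums did not overlap, however, at 4.28 to 4.75 CPM with sgBcl-2 and 5.67 to 7.11 CPM with sgNT. T cell sums (0.257 to 0.715 against 1.07 to 1.12 CPM) and mitochondrial shares of the reads (2.52% to 2.90% against 2.38% to 2.45%) did not overlap either. The endothelial, fibroblast and B cell sums overlapped, and the part of these values in the result was not tested.

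The sixth comparison, sgNT against no sgRNA, shows what the non-targeting guide and its delivery went along with in cells that all carry the cassette. Of the 8 genes, 4 fell with sgNT, 0 rose and 4 did not pass the test. Hmgcs1 fell most, from 315 ± 25.8 to 220.4 ± 20.1 CPM (SD, n = 2 each), with a log2 fold change of -0.53 ± 0.08 (SE, limma adjusted p = 0.00185). Cyp51 fell from 254 ± 12.9 to 189 ± 20.1 CPM, with -0.44 ± 0.08 (limma adjusted p = 0.00340). Insig1 fell from 199 ± 4.58 to 164 ± 14.2 CPM (-0.30 ± 0.07, limma adjusted p = 0.0115) and Idi1 from 187 ± 16.3 to 153 ± 18.7 CPM (-0.30 ± 0.09, limma adjusted p = 0.0285). In these 4 genes both sgNT libraries were below both libraries without an sgRNA. Low sums of markers of other cells also moved without overlap, from 10.6 and 12.8 CPM without an sgRNA to 4.68 and 3.39 CPM with sgNT for the 3 endothelial markers, from 3.23 and 2.54 to 7.11 and 5.67 CPM for the 5 myeloid markers and from 12.8 and 11.4 to 24.4 and 19.1 CPM for the 5 B cell markers. The fibroblast sums overlapped, and the part of these values in the result was not tested.

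Sqle (-0.06 ± 0.07), Lss (-0.02 ± 0.08), Srebf2 (-0.07 ± 0.09) and Fdft1 (0.09 ± 0.07) had limma adjusted p-values of 0.468, 0.847, 0.575 and 0.324. Of all 14655 genes, 20.9% were called lower and 20.3% higher, so 4 of 8 lower stands against a broad background. The calls of Idi1 and Insig1 were lost without sgNT library 2 (limma adjusted p = 0.134 and 0.0517) and without library 1 of the MEFs without an sgRNA (0.201 and 0.0870), and that of Idi1 also without the filter on low counts (0.0684). With all 10 MEF libraries in the fit, WT library 2 included, all 4 calls were lost (2.78% of all genes were called lower), although the log2 fold changes hardly moved (Hmgcs1 -0.53, Cyp51 -0.44, Idi1 -0.30 and Insig1 -0.29). The sgNT libraries serve in both this and the previous comparison, so a low sgNT level enters both. Side by side, Cyp51 had a mean of 254 CPM without an sgRNA, 189 CPM with sgNT and 287 CPM with sgBcl-2, and Hmgcs1 had 315, 220.4 and 282 CPM. For Sqle the 3 means were 201, 195 and 263 CPM and for Srebf2 213.5, 205 and 261 CPM.

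The last comparisons set both cassette-bearing groups without a Bcl-2 guide against WT MEFs. All 8 log2 fold changes were positive in both (median 0.83 for no sgRNA and 0.56 for sgNT), except that edgeR and DESeq2 gave -0.049 and -0.072 for Cyp51 with sgNT. The WT libraries stood apart, from 230.1 against 137.7 CPM for Srebf2 to 242 against 16.3 CPM for Idi1. Limma called 0 of the 8 genes and 0% of all genes for no sgRNA against WT (14546 genes, 1081 of them and 0 of the 8 at an unadjusted p under 0.05). It also called 0 of the 8 and 0% of 14560 genes for sgNT against WT (589 genes and 0 of the 8 at an unadjusted p under 0.05). Limma-voom, edgeR and DESeq2 called 0 of the 8 in both.

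Which WT library was kept decided the direction. Without WT library 2, 6 of the 8 genes were lower without an sgRNA than in WT library 1 (15.0% of all genes were called lower), all except Hmgcs1 and Srebf2. With sgNT 6 were also lower (4.67% of all genes), all except Fdft1 and Srebf2. Without WT library 1, all 8 were higher than in WT library 2 in both comparisons, when 28.3% and 26.9% of all genes were called higher. Idi1, for example, had a log2 fold change of -0.43 (limma adjusted p = 0.0111) without WT library 2 and 3.68 (limma adjusted p = 0.00490) without WT library 1 for no sgRNA against WT. Such a fit has 1 WT library, which is assumed to vary like the other group. The low level of all 8 genes in WT library 2 goes along with its higher myeloid and endothelial and lower fibroblast sums given above, and their part in the level was not tested.

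To place the 8 genes in the wider pathway, 5 lists of cholesterol and lipid genes were counted in each comparison. They were 14 other synthesis enzymes, 5 genes of SREBP control, 9 of uptake and intracellular transport, 7 of efflux and esterification, and 6 of fatty acid synthesis. In sgBcl-2 against sgNT MEFs, all 14 other synthesis enzymes had positive log2 fold changes, with a median of 0.39, and 3 rose by limma's test, where 6.61% of all genes were called higher and 4.24% lower. They included Hsd17b7 (0.49 ± 0.13, SE, limma adjusted p = 0.0451) and Sc5d (0.35 ± 0.09, limma adjusted p = 0.0388), both of late sterol steps. Of SREBP control genes 1 of 5 rose, Srebf1 (0.53 ± 0.08, limma adjusted p = 0.00760), which encodes the paralogue that mainly drives fatty acid synthesis. Of 9 uptake genes 4 rose and 0 fell.

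Among those that rose was Scarb1, which encodes a receptor for HDL, with 88.8 and 95.4 CPM with sgNT and 125, 126, 112 and 114 CPM with sgBcl-2 (0.46 ± 0.08, SE, limma adjusted p = 0.0104). Stard4, a carrier of sterol inside the cell, had 49.7 and 44.9 CPM with sgNT and 73.2, 75.3, 67.1 and 51.7 CPM with sgBcl-2 (0.58 ± 0.13, limma adjusted p = 0.0290). All sgBcl-2 libraries were above both sgNT libraries for both genes. Of 6 fatty acid genes 4 rose (Acaca, Fasn, Scd1 and Scd2). Of the 7 efflux genes 0 rose and 1 fell, Mylip (-0.55 ± 0.15, limma adjusted p = 0.0497), an LXR target that limits lipoprotein uptake. The efflux median was -0.36, but the list was mixed, with 3 positive and 4 negative log2 fold changes. Abca1, the main exporter of cholesterol to lipid-poor apolipoproteins and named here after its values were seen, had 30.8 and 38.2 CPM with sgNT and 45.9, 47.0, 67.4 and 83.9 CPM with sgBcl-2 (0.87 ± 0.25, SE, limma adjusted p = 0.0565), with no overlap. These counts depended on single libraries as those of the 8 genes did. Without the sgBcl-2 library 2.2 limma called 13 of 14 other synthesis enzymes, 7 of 9 uptake genes and 6 of 6 fatty acid genes higher, and among efflux genes Abca1 and Soat1 were higher and Mylip was no longer called. Without sgNT library 1 the counts were 0 of 14, 1 of 9 and 1 of 6, and without sgNT library 2 they were 0, 3 and 3, when 0.732% and 1.11% of all genes were called higher. With all 10 MEF libraries in the fit 0 genes of the 5 lists were called (0.297% of all genes higher).

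With sgNT against no sgRNA the lists differed from each other. Of the 7 efflux genes 5 rose and 0 fell, with a median log2 fold change of 0.87, where 20.3% of all genes were called higher. The myeloid sums given above moved in the same direction, and their part was not tested. Abcg1, a cholesterol exporter and LXR target, had 2.63 and 3.91 CPM without an sgRNA and 15.9 and 25.2 CPM with sgNT (2.59 ± 0.27, SE, limma adjusted p = 3.05e-04). Apoe, which carries exported lipid, had 13.2 and 10.3 CPM and 48.1 and 41.0 CPM (1.90 ± 0.13, limma adjusted p = 5.46e-05). Abca1, Mylip and Nr1h3 were the other 3. In WT MEFs Apoe had 17.0 and 259 CPM and Abcg1 11.8 and 34.8 CPM, with the higher value in WT library 2 for both.

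Among the 14 other synthesis enzymes, 6 rose (Mvd, Tm7sf2, Nsdhl, Ebp, Sc5d and Dhcr7) and 3 fell with sgNT, where 20.3% of all genes were called higher and 20.9% lower, so that the 3 of 14 stand at about the background share. Msmo1, a sterol demethylase and 1 of the 3 that fell, had 256 and 237 CPM without an sgRNA and 219 and 195 CPM with sgNT (-0.27 ± 0.07, SE, limma adjusted p = 0.0221). Of 9 uptake genes 3 rose, Lipa and Npc2 among them, and 2 fell, including Scarb1 (-0.28 ± 0.08, limma adjusted p = 0.0198). Scap rose among 5 SREBP control genes, and Acly and Scd1 among 6 fatty acid genes.

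In tumours against lines, limma called 0 genes of these 5 lists. At an unadjusted p under 0.05 there were 8 of 14 other synthesis enzymes, 0 of 5 SREBP control genes, 4 of 9 uptake genes, 4 of 7 efflux genes and 5 of 6 fatty acid genes, against 3295 of all 12719 genes. Of other synthesis enzymes 11 of 14 were negative with a median of -1.004, of fatty acid genes 5 of 6 (median -1.06) and of uptake genes 7 of 9 (median -0.52). In contrast, 6 of 7 efflux genes were positive (median 1.02). The myeloid sums given above were also higher in the tumours, at 24.6 to 31.3 CPM against 0.586 to 10.0 CPM in the lymphoma lines, and their part was not tested.

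In the lymphoma lines against preB-ALL, where 43.4% of all genes were called, 1 of 14 other synthesis enzymes rose and 0 fell, below that share. Of SREBP control genes 1 of 5 fell, Insig2 (-1.17 ± 0.21, SE, limma adjusted p = 0.00271), the second INSIG gene. Of uptake genes 2 of 9 fell (Lipa and Npc2, both of lysosomal cholesterol release), of efflux genes 1 rose (Apoe) and 2 fell (Nr1h3 and Soat1), and of fatty acid genes 3 of 6 rose, led by Fasn with 2.03 ± 0.25 (limma adjusted p = 3.55e-04). Against sgBcl-2 MEFs, where 45.0% of all genes were called lower and 36.3% higher, 11 of 14 other synthesis enzymes and 7 of 9 uptake genes fell in the lines and 0 of either rose. The SREBP control genes split, with 2 of 5 higher and 3 lower, efflux genes with 2 higher and 4 lower of 7, and fatty acid genes with 3 higher and 3 lower of 6. Between IgM-negative and IgM-positive lines only Soat1, which esterifies cholesterol for storage, was called among these lists (limma adjusted p = 0.0257). It had 1.82 to 3.07 CPM in the IgM-positive lines and 0.0781 and 0 CPM, that is 2 reads and 0 reads, in the IgM-negative lines, so that the size of its fold change depends on the pseudocount and is not given.

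**Figure D4:**
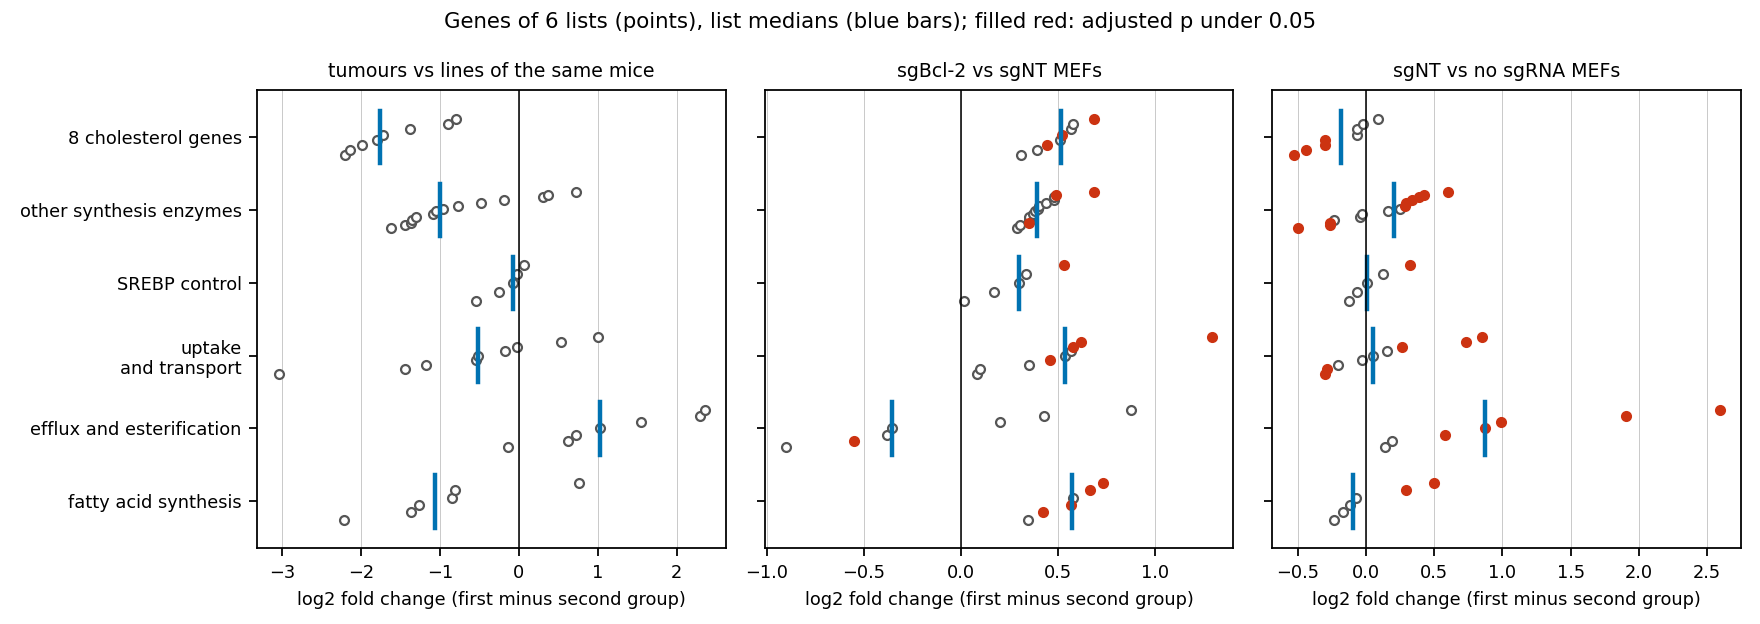
Log2 fold changes of the 8 genes and of the genes of 5 other lists in 3 comparisons, 1 point per gene, with a blue bar at each list's median and filled red points for an adjusted p under 0.05 in limma. In these 3 comparisons the medians of the 8 genes and of the efflux list were -1.76 and 1.02 (tumours against lines), 0.52 and -0.36 (sgBcl-2 against sgNT) and -0.18 and 0.87 (sgNT against no sgRNA), where the median of the other synthesis enzymes was 0.21. In the comparisons not drawn, the medians were -0.02 and -0.54 for lines against preB-ALL, -1.11 and -0.44 for lines against sgBcl-2 MEFs, 0.39 and -0.19 for IgM-negative against IgM-positive lines, 0.83 and -0.51 for no sgRNA against WT, and 0.56 and -0.0037 for sgNT against WT.

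Across all 20 libraries the levels of most of the 8 genes followed each other. Pearson's r of each gene with the mean z-score of the other 7 was 0.966 for Hmgcs1, 0.974 for Sqle, 0.976 for Cyp51, 0.960 for Insig1 and 0.935 for Lss. It was lower for Fdft1 (0.747), Idi1 (0.71) and Srebf2 (0.459). Within the 10 MEF libraries r was between 0.916 for Srebf2 and 0.995 for Lss. These points share cell type and, in MEFs, the low WT library 2, and the values are a description with no test.

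Of the 5 genes outside the 8 whose levels were most like the mean of the 8 over 20 libraries, among 16483 genes, 4 are given here. They were Fdps (r = 0.974), Cyb5b (0.954), 4930483K19Rik (0.942) and Acat2 (0.934). Over the 10 MEF libraries, among 15158 genes, the 5 were Msmo1 (0.996), Fdps (0.991), Elovl6 (0.989), Mvk (0.987) and Hsd17b7 (0.987). Fdps had 196 and 51.7 CPM in WT MEFs, 102 CPM at most in the IgM-positive lines, 34.0 and 21.9 CPM in the tumours and 88.8 and 97.0 CPM in preB-ALL.

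**Figure D5:**
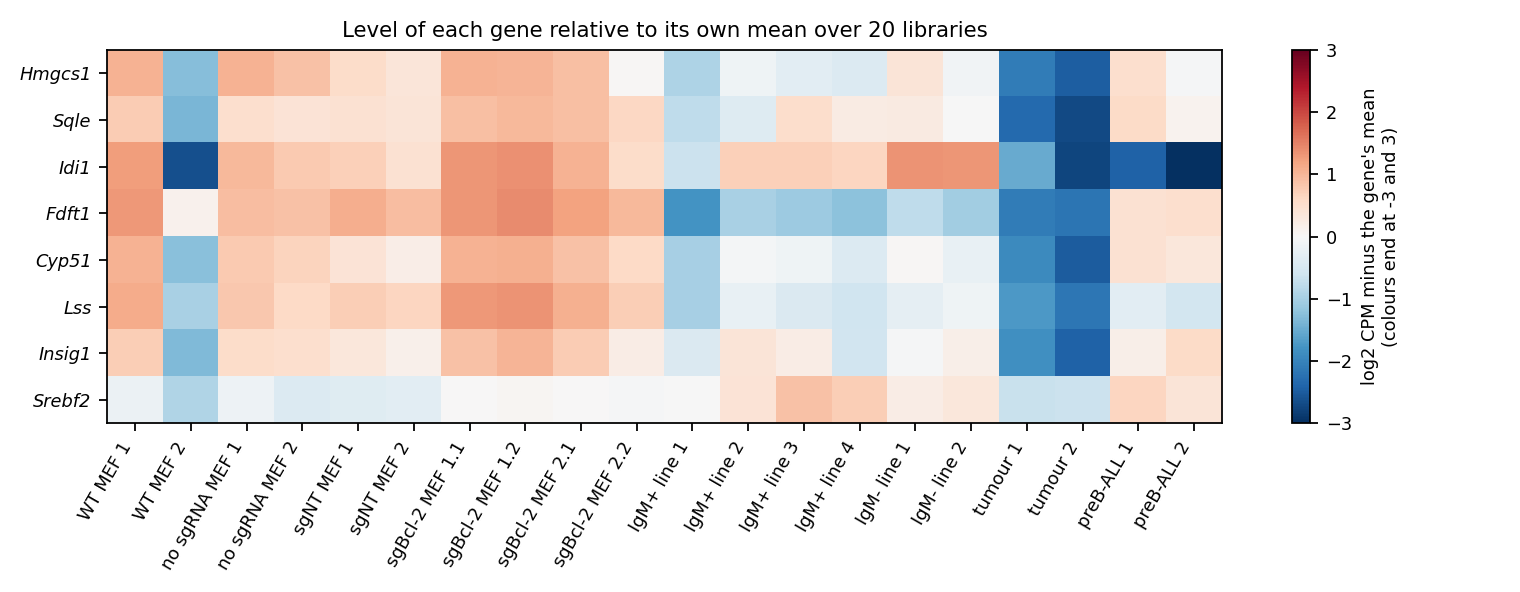
Log2 CPM of each of the 8 genes in 20 libraries minus that gene's mean over the libraries, shown as colour from -3 (blue) to 3 (red). The tumours are blue for all 8 genes and WT MEF library 2 for all except Fdft1, whereas in preB-ALL Idi1 is deep blue and Lss pale blue, and the other 6 genes are pale or red.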

How the data were processed

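RNA-seq of 20 mouse libraries was analysed. The authors aligned reads to GRCm38 with Rsubread, counted them per Entrez gene and deposited 1 table of CPM values of 25869 genes without a log. Every column matched a sample label, and 0 columns were left unused. Symbols and coordinates came from the RefSeq gene table of GRCm38.p6, which matched 25242 identifiers, and promoter windows from its promoter table.

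CPM steps gave whole reads for 100% of the values (tolerance 0.01 reads), so depth was known. Whether the counting used strand is not given in the sources used here. For each comparison only its own libraries were fitted. Low genes were removed with filterByExpr of edgeR, applied to the recovered reads. The rest were scaled by TMM, and limma (lmFit, eBayes with trend) was run on log2(CPM + 0.1). Fold changes are on that scale, which understates changes of low genes, while ratios of means are of unscaled CPM. The Benjamini-Hochberg adjustment ran over all genes tested, with a threshold of 0.05. The share of all genes that were lower without overlap was counted for tumours against lines only. Other statements of no overlap have no such background beside them. As the unit is CPM, limma was the main test. Alternatives were limma-voom, edgeR's quasi-likelihood test and DESeq2 on the recovered reads, RLE or no scaling, no filter, a pseudocount of 1 CPM, each library left out, a replicate block, all 10 MEF libraries in the fit, and other sets of lines and tumours.

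All 8 genes are named in every comparison. Of the lists, genes that passed the test may be named, and 5 genes per set of libraries were named by their correlation with the mean z-score of the 8. Some genes covered by this rule are not reported. The genes and lists were chosen with earlier results of these data known. The names of the MEF groups without an sgRNA, with sgNT and with sgBcl-2 share line numbers, read here from the names alone as the same MEF line. Across 15158 genes the line 1 minus line 2 differences correlated at 0.33 between sgNT and sgBcl-2, at -0.05 between no sgRNA and sgNT and at -0.13 between no sgRNA and sgBcl-2. With WT, where the number is shared only as a number, they correlated at 0.05 with no sgRNA, 0.06 with sgNT and 0.18 with sgBcl-2. The code was tested on simulated data. Tools were R 4.3.3, limma 3.58.1, edgeR 4.0.16, DESeq2 1.42.0, and Python 3.11.15 with pandas 2.3.3 and matplotlib 3.10.9.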

Additional observations from a re-analysis of the deposited data

Results flagged for a closer look

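Idi1 in IgM-positive line 1 stood apart from the other IgM-positive lines. It had 64.7 CPM, and the nearest of the other 3 had 158 CPM, a gap of 0.904 of the range of the 4 lines. Of the 24 sets of a gene and a group of 4 or 6 libraries examined in this way, this was the only one beyond Dixon's 95% limit, and chance gives about 1 in 20. This line was also the lowest of the 6 lines for all of the 8 genes except Insig1. The cause was not tested.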

How the results depend on the processing

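Of 912 recomputed fold changes of the 8 genes, 805 kept their direction and side of the threshold, 52 passed it newly, 18 no longer passed it and 37 changed sign. Counts called for tumours against lines were 7 with DESeq2 (2100 of all genes), 7 with a replicate block by the mouse in the titles (3600), 0 by that in the descriptions (0) and 7 with all 4 IgM-positive lines (1418). For sgBcl-2 against sgNT they were 7 with DESeq2 (2086 of all genes), 7 with the replicate block by MEF line number (2148) and 0 with all 10 MEF libraries (64), and between 0 and 8 with 1 library left out (156 to 1638). For sgNT against no sgRNA they were 0 with all 10 libraries (901 of all genes), 3 without the filter on low counts, where Idi1 was lost, and between 2 and 4 with 1 left out, with 4 under the replicate block. For lines against preB-ALL it was 1 when the tumours replaced the lines of their mice (3668 of all genes). For no sgRNA against WT and for sgNT against WT they ran from 0 to 8 with 1 library left out, and the block, by a shared number only, gave 0. The block changed no other call.

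Sign changes in lines against preB-ALL were those of Sqle (-0.044 with DESeq2, -0.087 with RLE, -0.35 without scaling, -0.67 with tumours, -0.32 to 0.26 with 1 library left out), Lss (-0.0092 without scaling, -0.13 with tumours), Srebf2 (-0.092 and -0.055 in the same order), Hmgcs1 (-0.49 to 0.15 with 1 left out) and Insig1 (-0.24 to 0.053). In sgNT against no sgRNA they were those of Lss (-0.12 to 0.083) and Srebf2 (-0.20 to 0.061) with 1 left out. Against WT, all 8 turned with the WT library kept. For no sgRNA the ranges were Hmgcs1 -0.13 to 2.41, Sqle -0.36 to 2.01, Idi1 -0.43 to 3.68, Fdft1 -0.45 to 0.96, Cyp51 -0.37 to 2.16, Lss -0.47 to 1.85, Insig1 -0.27 to 2.03 and Srebf2 -0.17 to 0.80. For sgNT they were Hmgcs1 -0.66 to 1.85, Sqle -0.42 to 1.92, Idi1 -0.73 to 3.35, Fdft1 -0.36 to 1.02, Cyp51 -0.81 to 1.69 (-0.049 with edgeR, -0.072 with DESeq2), Lss -0.49 to 1.80, Insig1 -0.56 to 1.70 and Srebf2 -0.24 to 0.70. The cause was not tested.

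Counts over all genes moved more, from 0 to 3600 for tumours against lines (42 in the main test), 1 to 749 for the IgM comparison (74), 64 to 2148 for sgBcl-2 against sgNT (1592), 901 to 6064 for sgNT against no sgRNA (6029), 3177 to 6520 for lines against preB-ALL (6059), and 0 to 8581 and 0 to 8424 for both comparisons with WT. Depth did not limit the 8 genes, of which the lowest value was 10.3 CPM. Most groups hold 2 libraries.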
